A study of Mus musculus with 12 samples.

Results

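Helper T cells without Dgcr8 that had received miR-29b were compared with cells of the same mice that had received a control miRNA, across all genes measured. The comparison used the arrays titled Dgcr8 KO miR-29b and Dgcr8 KO control, 6 of the 12 arrays of the study, in 3 pairs formed by the mouse number in the title (2, 3 and 4). The cells came from C57BL/6 mice aged 7 weeks, and both groups were DGCR8-deficient. Neither the allele nor the cell type in which it was deleted is given in the sources used here. In culture, antibodies against CD3 and CD28 stimulated the cells for 65 hours, and IL-2 was present for 48 further hours. Electroporation on day 1 and again on day 4 brought in miR-29b or the control miRNA, and RNA was taken on day 5, 24 hours after the second of these. The other 6 arrays held wild-type helper T cells with miR-29 inhibitors or control inhibitors. They entered the estimate of the spread and 1 comparison of effects.

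A microRNA leads an Argonaute protein to transcripts that pair with its seed, a short stretch near its 5′ end, and lowers their stability or translation. Dgcr8 is the partner of the nuclease Drosha, which frees microRNA hairpins from their primary transcripts, so cells without Dgcr8 make few mature microRNAs of their own. A mature microRNA supplied from outside does not need that step. In T cells, reported targets of the miR-29 family include enzymes that add methyl groups to DNA, and Ifng, Eomes and Tbx21 of the Th1 program. The mature sequences are shown because the members share the seed, here in capitals (bases 2 to 8), and differ outside it.
mmu-miR-29b-3p: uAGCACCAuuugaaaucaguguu
mmu-miR-29a-3p: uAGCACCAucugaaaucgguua
mmu-miR-29c-3p: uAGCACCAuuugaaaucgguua
The sequences are from RefSeq (GRCm38.p6). miR-29b is encoded at 2 loci, Mir29b-1 (chr6:31063025-31063047, minus strand) and Mir29b-2 (chr1:195037091-195037113, plus strand), miR-29a at chr6:31062673-31062694 on the minus strand and miR-29c at chr1:195037600-195037621 on the plus strand. Counted from 1 at the 5′ end, with miR-29b first, miR-29a differs at U10C, A18G, G21U and U22A and miR-29c at A18G, G21U and U22A, and miR-29b (23 bases) is 1 base longer. Of 1738 mature mouse microRNAs in that table, 3 names had this seed. The sequence of the transfected oligonucleotide is not given in the sources used here, and seed matches in 3′ untranslated regions were not analysed here.

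A level below is the log2 of the processed spot signal over its array's 75th percentile, a difference is miR-29b minus control on that log2 scale (± SE), and p-values are from limma, adjusted over all genes tested. The 3 mice of a genotype are separate animals per the series' design text, so p-values measure how far differences within mice vary from mouse to mouse. That spread was pooled over the Dgcr8-deficient pairs and the wild-type inhibitor pairs, so it is not that of the miR-29b differences alone. On the 6 arrays of the comparison alone fewer genes passed, as given below. Of 41174 distinct probes, 28511 to 32218 rose clearly over background on an array and 0 spots were saturated. The number of arrays limits the precision. For miR-29b in mouse 3 the scanner's outlier marks covered 1458 spots, and elsewhere 68 to 145. All 8 of the helper T cell markers on the array (Cd28, Cd3d, Cd3e, Cd3g, Cd4, Cd5, Lat and Lck) were well above background on all 6 arrays. Their summed signal, in units of the 75th percentile, was 260 to 299 in the controls and 356 to 404 with miR-29b. B cell markers were well above background on all 6 arrays in 6 of 8 cases (summed signal 4.47 to 9.64 in controls, 5.59 to 10.7 with miR-29b) and Cd8a was too (0.134 to 0.336, and 0.149 to 0.396). The same held for 3 of 5 NK cell markers (0.205 to 0.354, and 0.119 to 0.297), 6 of 10 myeloid and dendritic markers (0.306 to 0.601, and 0.234 to 0.704), 1 of 5 erythroid and platelet markers (0.104 to 1.24, and 0.0646 to 0.324) and 2 of 7 stroma markers (0.284 to 0.721, and 0.241 to 0.833). Csf3r, Siglech and Pdgfra were not well above background on any array. Y-linked probes had a median of -8.58 and -7.34 on both arrays of mouse 3 and of -2.08 to -0.54 on the others. Single markers past the threshold included Cd3d, Lck and Cd5 (0.47 ± 0.13) of helper T cells, Klre1 (0.57 ± 0.16) of NK cells, Adgre1 (1.06 ± 0.21) of myeloid cells and the globin gene Hba-a1 (-0.65 ± 0.16). Other markers went the other way: of 5 NK cell markers tested 3 were positive and 2 negative, down to -1.68. Of 7 myeloid and dendritic markers tested 5 were positive and 2 negative, down to -1.38. In both lists 0 were past the threshold and lower. Without mouse 2, 3 and 4 the helper T cell rises numbered 1, 1 and 1, the NK cell rise 0, 0 and 0, the myeloid rise 1, 0 and 0 and the globin fall 0, 1 and 0. The part of these values in the results was not tested. In these bulk samples, fewer cells of a type and less RNA per cell cannot be told apart.

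Dgcr8 had levels of -0.74, -1.24 and -0.15 in the controls of mice 2, 3 and 4 and of -0.67, -1.02 and -0.35 with miR-29b. The groups overlapped, and the difference was 0.03 ± 0.12 (adjusted p = 0.855). Whether its probe lies in the deleted stretch is not given, so the value does not check the deletion. Cd4, the coreceptor that defines helper T cells, showed 0.05 ± 0.11 (adjusted p = 0.74), and Cd3e, a chain of the T cell receptor complex, -0.01 ± 0.08 (adjusted p = 0.916).

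Of 13880 genes tested, 3483 (25.1%) passed the threshold of 0.05, and 2033 (14.6%) were higher and 1450 (10.4%) lower with miR-29b. All 3483 had the same sign in all 3 mice, as did 60.6% of all genes. Most differences were modest: the median was 0.56 among higher and -0.61 among lower genes, and 295 genes were more than 2-fold higher and 249 more than 2-fold lower. The groups did not overlap in 16.1% of all genes (9.42% higher, 6.64% lower), and in 1666 of the genes past the threshold. Unpaired, meaning fitted without the mouse as a block, 342 genes passed (2.46%), 156 higher (1.12%) and 186 lower (1.34%), and all 342 were among the 3483. The 6 arrays of the comparison on their own, still paired, gave 1543 (11.1%, with 6.15% higher and 4.97% lower), of which 1483 were shared. Without mouse 2, 3 or 4 the count was 1657, 2190 and 1396. The median SE was 0.12 with the pairing and 0.29 without it.

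**Figure D1:**
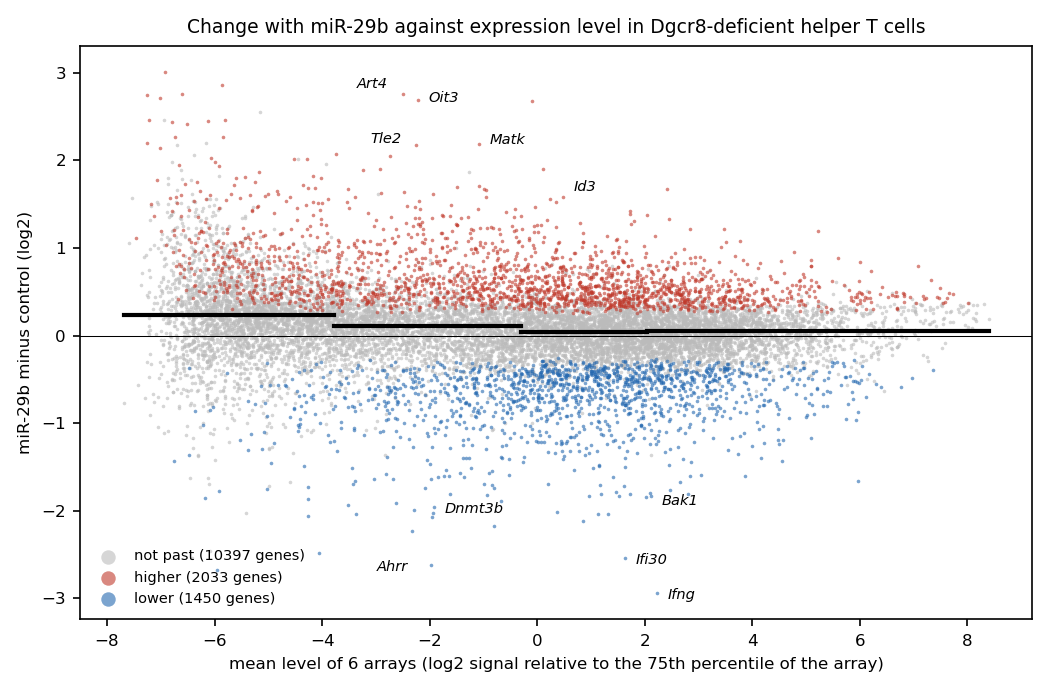
Difference between miR-29b and control (log2, vertical axis) against the mean level on the 6 arrays (log2, in units of the 75th percentile, horizontal axis), 1 point per gene, red for higher, blue for lower and grey for genes not past the threshold. Black lines give the median of each of 4 groups of 3470 genes by level, from 0.24 in the dimmest to 0.05 in the brightest; Ifng is the lowest point on the right and Art4 and Oit3 are among the highest.

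Rises and falls were not spread alike over expression levels. With genes split by level into 4 groups of 3470, in the dimmest 11.5% were higher and 2.02% lower with miR-29b, and the median difference was 0.24. In the brightest group 13.0% were higher and 12.1% lower, with a median of 0.05. Scaling moved this pattern: with quantile normalization 3.69% of the dimmest group were higher and 5.39% lower (median -0.11), and in the authors' deposited log2 values 3.52% and 5.24%. Over all genes the median difference was 0.10, and it became -0.0047 after quantile normalization and 0.0093 in the authors' values. The medians of gene lists below are to be read against 0.10. Higher genes made up 58.4% of the genes past the threshold here, 48.6% with quantile normalization, 50.7% in the authors' values and 57.1% with normexp background correction.

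**Figure D2:**
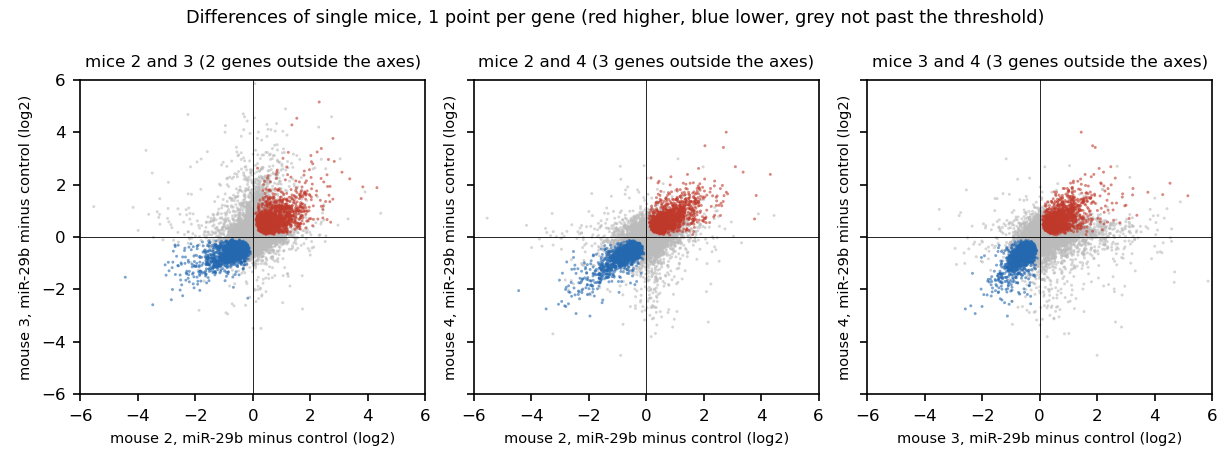
Differences (miR-29b minus control, log2) of 1 mouse against another, 1 point per gene, for the pairs 2 and 3, 2 and 4, and 3 and 4; red and blue points are genes past the threshold, higher and lower. Correlations across genes were 0.45, 0.58 and 0.43, and grey points along the axes are genes that differed in 1 mouse only.

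The mice differed in how far genes moved. Differences had an SD over genes of 0.60 in mouse 2, 0.64 in mouse 3 and 0.54 in mouse 4, and correlated across genes at 0.45 (mice 2 and 3), 0.58 (2 and 4) and 0.43 (3 and 4). These describe genes measured on shared arrays, which are not independent replicates. Inhibitors in wild-type cells gave differences with an SD of 0.34 to 0.40 in single mice.

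The largest falls among genes well above background on all 6 arrays, with the same sign in all mice and groups apart, were in Ifng, Ahrr, Ifi30, Fbn1, Gbp2b and Dcakd. Ifng, the gene of interferon gamma, had levels of 4.59, 3.97 and 2.54 in the controls of mice 2, 3 and 4 and of 1.11, 1.39 and -0.21 with miR-29b. Every control was above every miR-29b array, and the difference was -2.94 ± 0.19 (adjusted p = 0.00149, 0.0183 unpaired), with -3.04 on a dimmer Ifng probe. Ahrr, which represses the aryl hydrocarbon receptor, went from -1.31, -0.10 and -0.62 to -4.14, -2.49 and -3.25, a difference of -2.62 ± 0.11. Its groups were also apart, and the 3 mice were close to each other (-2.84, -2.40 and -2.63). Ifi30, which reduces disulfide bonds in lysosomes, went from 2.74, 2.85 and 3.13 to 0.29, 0.60 and 0.21 (-2.54 ± 0.16). Fbn1, which encodes the matrix protein fibrillin, fell by 2.49 on the log2 scale, and its second probe showed -1.43 and did not pass. Gbp2b, an interferon-induced GTPase, fell unevenly, with -3.05, -1.06 and -2.57 in mice 2, 3 and 4 (adjusted p = 0.0333). It did not pass unpaired (0.0627), on the 6 arrays alone (0.0521), with no filter on dim probes, or without mouse 2 or 4. Further falls were in Dcakd (-2.17 ± 0.14), the growth factor binding protein Igfbp7 (-2.12 ± 0.36), the transcription factor Batf2 (-2.07 ± 0.22), the glycosyltransferase Gcnt2 (-2.06 ± 0.11), Serf1 (-2.04 ± 0.29), the granule protease Gzmk (-2.03 ± 0.34) and the lysosomal membrane protein Gpr137b (-2.03 ± 0.14). Groups that did not overlap were a condition for naming these 7 genes. Igfbp7 differed by -2.94, -0.96 and -2.46 in mice 2, 3 and 4. It did not pass on the 6 arrays alone (adjusted p = 0.0545) or without mouse 4. Gzmk differed by -1.96, -1.12 and -3.02, and did not pass unpaired (0.177) or on the 6 arrays alone (0.0525).

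The falls with the smallest p-values were in Ahrr, Dnmt3b, Phf10, Gcnt2, Narf and Srd5a1, each with an adjusted p of 0.0014 in limma. Phf10, a subunit of the chromatin remodelling complex BAF, shows what the pairing adds. Its levels were 4.16, 4.43 and 2.50 in the controls and 2.23, 2.63 and 0.82 with miR-29b, so that mice differed and the groups overlapped. Yet the difference within mice was -1.92, -1.81 and -1.68, or -1.80 ± 0.09 in all, and unpaired it did not pass (adjusted p = 0.251). Narf, which binds prelamin A, gave -1.53, -1.67 and -1.51 in the 3 mice. Srd5a1, a steroid reductase, went from -0.08, -0.20 and 0.07 to -1.71, -1.63 and -1.52 (-1.55 ± 0.08). Both its groups and those of Narf were apart.

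The largest rises among genes well above background on all 6 arrays, with the same sign in all mice and groups apart, were in Art4, Oit3, 6430571L13Rik, Matk, Tle2 and Nyap1. Art4, an ADP-ribosyltransferase that carries a blood group antigen, had levels of -4.50, -3.24 and -3.88 in the controls and -1.40, -0.76 and -1.19 with miR-29b. The groups were far apart (2.76 ± 0.14, adjusted p = 0.0014, 0.00374 unpaired). Oit3, a secreted protein known from liver, rose by 2.69 ± 0.22 and by 1.90 on a second probe, and 6430571L13Rik rose by 2.68 ± 0.37 and by 2.38 on a second probe. Matk, a kinase that restrains Src family kinases, went from -2.75, -1.97 and -1.82 to -0.38, 0.27 and 0.13 (2.19 ± 0.20), while its dimmer probe showed 0.15 and did not pass. Tle2, a Groucho-type corepressor, rose by 2.17 ± 0.19, and Nyap1, an adaptor of PI3K signalling in neurons, by 2.05 ± 0.25. The next were the coagulation factor gene F8 (2.02 ± 0.17), Sugct (2.02 ± 0.24), the elongation factor Ell3 (1.90 ± 0.19), the receptor Gpr83 (1.90 ± 0.22), the synaptic protein Prrt2 (1.89 ± 0.18) and the lymphatic growth factor Vegfd (1.87 ± 0.27). Several of these genes are best known from other tissues. For all 12, signal well above background on all 6 arrays was a condition of the choice. Unpaired, 6430571L13Rik (adjusted p = 0.131) and Gpr83 (0.056) did not pass. The rises with the smallest p-values were in Gpr179, Art4, Tnfsf14, Prmt2, Lefty1 and Tcea3. Tnfsf14, the TNF family ligand LIGHT, rose by 1.37, 1.46 and 1.45 in the 3 mice, and Tcea3, a transcript elongation factor, by 1.47, 1.54 and 1.48.

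**Figure D3:**
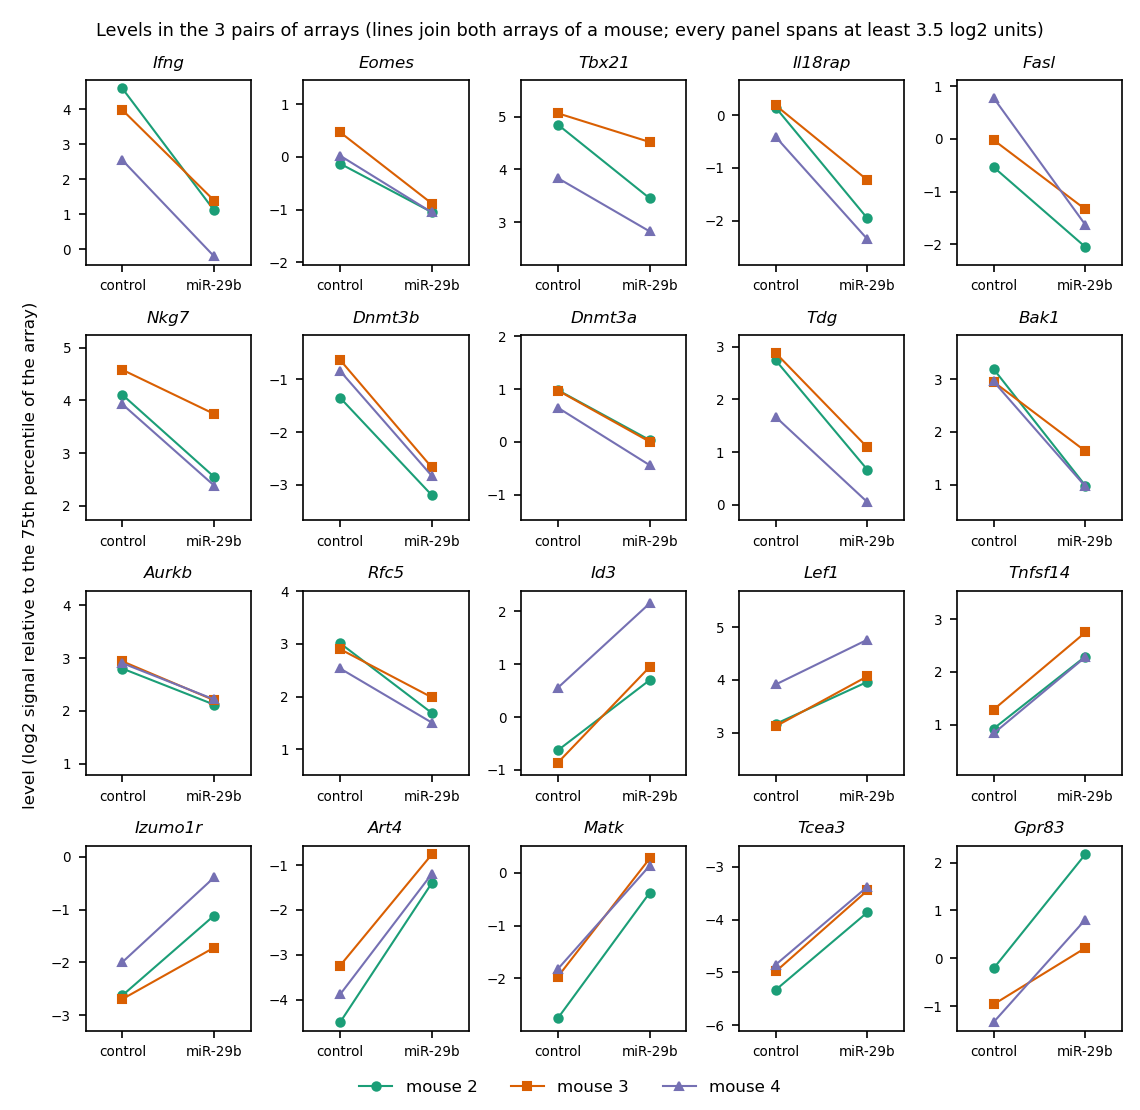
Levels (log2, scaled to each array's 75th percentile) of 20 genes in control and miR-29b cells, 1 line per mouse joining both arrays (circle mouse 2, square mouse 3, triangle mouse 4). In every panel the 3 lines run the same way, down from Ifng to Rfc5 and up from Id3 to Gpr83, and in Tbx21 the groups overlap, with mouse 4 low in both.

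Among 43 tested genes with reported nuclear or signalling roles as miR-29 targets, 17 fell (11, 13 and 11 without mouse 2, 3 and 4, and 7 unpaired) and 1 rose, against 10.4% and 14.6% of all genes. Their median was -0.21, and -0.38, -0.07 and -0.17 in mice 2, 3 and 4. Dnmt3b, which places new methyl groups, went from -1.35, -0.63 and -0.84 in the controls to -3.20, -2.67 and -2.83 with miR-29b, a difference of -1.96 ± 0.09 (adjusted p = 0.0014, 0.00374 unpaired). The groups were apart and mouse 3, highest in the control, stayed highest. Tdg, which removes oxidised methylcytosine, showed -1.83 ± 0.11 and -1.93 on a second probe. Dnmt3a fell on all 3 of its probes, by 1.002, 1.78 and 0.38 on the log2 scale, and Tet2, an oxidising enzyme, fell by 0.78 (SE 0.15). In the list of 20 DNA methylation and demethylation genes, 6 fell (4, 5 and 5 without mouse 2, 3 and 4, and 3 unpaired) and 3 rose (1, 1 and 1 without mouse 2, 3 and 4, and 0 unpaired), among them Gadd45b (0.95 ± 0.14), a stress protein linked to demethylation. Falls made up 30.0% and rises 15.0% of that list, the latter near the 14.6% of all genes. Reported matrix targets did not move as one: of 16 tested, 2 fell and 2 rose (12.5% each), with a median of 0.17, which was -0.03 with quantile normalization. Beside Fbn1, the basement membrane gene Nid1 was lower, by at least 1.98-fold, since with miR-29b it was not well above background on any array (-0.03 and not past the threshold with normexp). Nid1 is 1 of the 2 falls counted, but it met the background filter only through the controls. Its call is thus no support for a difference. In the same list Vegfa (0.76 ± 0.18) and Col15a1 (0.68 ± 0.18) rose. Without mouse 2, 3 and 4 the matrix falls numbered 1, 2 and 1 and the rises 0, 1 and 0. Mcl1, an antiapoptotic gene, showed -0.03 ± 0.11 on its brightest probe (adjusted p = 0.871) and -0.90 on a dimmer one, which passed.

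Genes of the Th1 program and cytotoxic granules fell, in 13 of 31 cases (12, 14 and 10 without mouse 2, 3 and 4, and 6 unpaired), and 1 rose. The shares were 41.9% lower and 3.23% higher, against 10.4% and 14.6% of all genes. The median was -0.42, and -0.66, -0.39 and -0.66 in mice 2, 3 and 4. Eomes, a T-box factor that promotes Ifng, went from -0.13, 0.47 and 0.02 in the controls to -1.05, -0.88 and -1.05 with miR-29b. Its groups were apart (-1.11 ± 0.14, adjusted p = 0.00495, 0.0249 unpaired). Tbx21, which encodes the T-box factor T-bet, went from 4.85, 5.06 and 3.83 to 3.45, 4.52 and 2.83, and here the groups overlapped, with mouse 4 low in both. Its difference passed within mice (-0.98 ± 0.16, adjusted p = 0.00959) and not unpaired (0.516). Il18rap, a chain of the interleukin 18 receptor, fell from 0.14, 0.18 and -0.41 to -1.96, -1.23 and -2.35 (-1.82 ± 0.14), with no overlap. Nkg7, a granule protein, showed -1.31 ± 0.16, and Fasl, a death ligand of killer cells, -1.74 ± 0.22. The single rise in the list was Lta (1.22 ± 0.25), the lymphotoxin gene, named here because it was the only one, and it did not pass without mouse 2 or 4, unpaired or on the 6 arrays alone.

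Of 33 interferon-stimulated genes 11 fell (5, 17 and 5 without mouse 2, 3 and 4, and 1 unpaired, and 17 in the authors' values) and 3 rose (2, 1 and 1 without mouse 2, 3 and 4, and 0 unpaired). Their median was -0.39, made up of -0.67, 0.05 and -0.60 in mice 2, 3 and 4. Ifit2, an antiviral RNA binding protein, went from -1.36, -0.86 and -0.62 to -2.24, -1.94 and -1.67 (-1.01 ± 0.09). In Ifit2 all 3 mice fell alike (-0.88, -1.09 and -1.05), whereas Oas1a, an enzyme of antiviral RNA decay, showed -1.99, -1.11 and -1.97. Ifitm3, which blocks viral entry, showed -1.61 ± 0.24, and Ifit3 -0.81 ± 0.12. Of 15 interferon gamma induced GTPases 6 fell (2, 7 and 1 without mouse 2, 3 and 4, and 1 unpaired, and 9 in the authors' values) and 0 rose, with a median of -0.42 and -0.64, -0.13 and -0.48 in the mice. Gbp7 (-0.83 ± 0.14), Irgm1 (-0.71 ± 0.12), Iigp1 (-0.96 ± 0.17) and Gbp6 (-0.79 ± 0.15), which act on vacuoles that hold microbes, had groups that did not overlap. Among 30 interferon regulatory factors and JAK-STAT-SOCS genes 3 fell (3, 5 and 3 without mouse 2, 3 and 4, and 1 unpaired) and 3 rose (1, 1 and 1 without mouse 2, 3 and 4, and 0 unpaired), or 10.0% each, near or below the shares of all genes (10.4% and 14.6%), and the median was 0.09. Ifnar1, a chain of the type I interferon receptor, fell (-0.79 ± 0.09), as did Irf8 (-0.86 ± 0.15) and the phosphatase Ptpn11 (-0.76 ± 0.08), and Stat5a rose (0.57 ± 0.10). In antigen presentation by class I molecules 2 of 16 genes fell (1, 2 and 1 without mouse 2, 3 and 4, and 0 unpaired), or 12.5%, near the 10.4% of all genes. They were the peptide transporter Tap1 (-1.07 ± 0.15) and H2-M3 (-0.59 ± 0.13).

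All 40 tested genes of DNA replication and S phase had a negative difference, 22 (55.0%) fell (16, 9 and 4 without mouse 2, 3 and 4, and 1 unpaired, and 31 in the authors' values) and 0 rose. Their median was -0.41, and -0.26, -0.52 and -0.53 in mice 2, 3 and 4, and it lay between -0.53 and -0.39 in all other settings tried. The falls were small beside those of Ifng. Over all genes 10.4% were lower and 14.6% higher, and the mitotic and histone counts below are to be read against these shares too. Rfc5, a clamp loader subunit, went from 3.01, 2.90 and 2.53 in the controls to 1.69, 1.99 and 1.51 with miR-29b (-1.09 ± 0.12, adjusted p = 0.00311). Its groups were apart, as were those of Cdt1, which licenses origins (-0.91 ± 0.10), and of Pole2, a polymerase subunit (-0.90 ± 0.11), while those of Mcm10 overlapped (-0.82 ± 0.10). Of 37 mitotic genes 15 fell (10, 7 and 5 without mouse 2, 3 and 4, and 2 unpaired, and 23 in the authors' values) and 0 rose, with a median of -0.33 and -0.21, -0.38 and -0.33 in the mice. Aurkb, a mitotic kinase, went from 2.80, 2.94 and 2.90 to 2.12, 2.20 and 2.22 (-0.70 ± 0.08). Top2a, which untangles DNA, changed by -0.59, -0.71 and -0.85 in the 3 mice, and Ccna2, cyclin A, by -0.57, -0.81 and -0.63. Mad2l1, a spindle checkpoint protein, showed -0.68 ± 0.10. Of 19 histone genes 6 fell (3, 4 and 3 without mouse 2, 3 and 4, and 2 unpaired) and 0 rose, among them the variants H3f3a (-0.93 ± 0.09) and H2ax (-0.88 ± 0.11) and the linker histones H1f5 (-0.87 ± 0.14) and H1f0 (-0.53 ± 0.09). Histone genes have near-identical copies, so the probes may read more than 1 of them.

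Promoters of these groups were searched because their members moved together. The windows were RefSeq promoters (GRCm38.p6, 250 bases before to 50 after a start), read on both strands and matched to genes by symbol, which held for 11158 of the 13880 genes. An E2F-type motif, TTTNNCGC, was present in 14 of 32 S-phase genes with a window (43.8%), in 10 of the 18 that fell (55.6%), in 8.77% of all genes tested, and in 5.17% of all 32851 windows. It was found in 12.7% of all lower and 6.83% of all higher genes. The CHR motif of mitotic genes, TTTGAA, was present in 22 of 31 mitotic genes (71.0%), 11 of the 13 that fell (84.6%), 16.0% of all genes tested and 17.9% of all windows. It was found in 15.6% of all lower and 14.1% of all higher genes, neither above the share of all genes tested. The interferon response element GAAANNGAAA was present in 12 of 24 interferon-stimulated genes and 8 of 9 GTPases (88.9%), in 3.95% of all genes tested and 3.44% of all windows. Lower genes held it in 5.36% and higher genes in 2.62% of cases. A sterol element, TCACNCCAC, was present in 1 of 15 cholesterol genes (6.67%) and in 1.45% of all genes tested. These matches are descriptions, and members that did not pass held them too. For each of the first 3 motifs, the fallen list member with the smallest p that has a match upstream of its start is shown, with matches in capitals. Only the 250 bases before the start are printed.
Mcm5 (chr8:75109259-75109508, plus strand): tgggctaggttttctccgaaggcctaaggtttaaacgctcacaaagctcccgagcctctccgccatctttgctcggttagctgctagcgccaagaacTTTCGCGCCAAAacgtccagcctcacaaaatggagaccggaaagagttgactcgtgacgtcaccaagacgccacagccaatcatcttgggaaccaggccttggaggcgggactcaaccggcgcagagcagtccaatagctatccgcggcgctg
Top2a (chr11:99024190-99024439, minus strand): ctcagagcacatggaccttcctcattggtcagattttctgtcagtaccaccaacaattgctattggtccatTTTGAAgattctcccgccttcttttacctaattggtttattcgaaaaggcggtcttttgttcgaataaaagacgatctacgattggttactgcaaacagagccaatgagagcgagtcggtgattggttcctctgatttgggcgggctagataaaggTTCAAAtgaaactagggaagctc
Oas1a (chr5:120907526-120907775, minus strand): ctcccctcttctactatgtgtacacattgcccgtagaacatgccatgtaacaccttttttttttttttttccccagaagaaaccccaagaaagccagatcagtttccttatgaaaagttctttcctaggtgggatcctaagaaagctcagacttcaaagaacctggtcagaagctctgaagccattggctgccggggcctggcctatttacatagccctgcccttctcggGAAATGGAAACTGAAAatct
In Mcm5, a subunit of the replicative helicase, 2 E2F-type matches overlap. Its level went from 6.08, 5.77 and 5.51 to 5.45, 5.11 and 4.39 (-0.80 ± 0.14). Top2a and Oas1a hold 2 matches each, and both in Oas1a overlap.

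Of 19 proapoptotic genes 7 fell (5, 7 and 5 without mouse 2, 3 and 4, and 3 unpaired) and 0 rose, with a median of -0.18. Bak1, which permeabilises mitochondria, went from 3.19, 2.95 and 2.96 in the controls to 0.98, 1.64 and 0.97 with miR-29b (-1.84 ± 0.19). The groups were apart on this probe, and a dimmer Bak1 probe showed -0.02 and did not pass. Apaf1, the scaffold of the apoptosome, fell on 2 of 3 probes (-1.06 and -0.65), with -0.30 on the third, and Aifm1, a mitochondrial oxidoreductase, showed -0.78 ± 0.08. Of 12 antiapoptotic genes 2 fell (16.7%, against 10.4% of all genes), Bcl2a1b (-0.55 ± 0.11) and Xiap (-0.38 ± 0.10), and 0 rose. That count was 0, 1 and 0 without mouse 2, 3 and 4, and 0 unpaired.

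Subunits of the constitutive proteasome, which degrades ubiquitin-tagged proteins, fell in 11 of 31 cases (4, 8 and 3 without mouse 2, 3 and 4, and 2 unpaired) and rose in 0. The median was -0.15, and subunits were uneven. Falls made up 35.5% of this list and 22.7% of the cholesterol list below, against 10.4% of all genes. Psma5, of the outer ring, went from 5.54, 5.54 and 4.72 to 3.95, 4.53 and 3.04 (-1.43 ± 0.14), and Psmb7, a catalytic subunit, from 3.27, 2.91 and 3.41 to 1.66, 1.85 and 1.66 (-1.47 ± 0.16). In both the groups were apart and mouse 3 moved least. Psma7 (-0.77 ± 0.08) and Psmb5, another catalytic subunit (-0.88 ± 0.14), fell less. Among 22 genes of cholesterol synthesis and uptake 5 fell (4, 5 and 4 without mouse 2, 3 and 4, and 3 unpaired, and 12 in the authors' values) and 0 rose. Their median was -0.35, and -0.60, -0.13 and -0.23 in mice 2, 3 and 4. Hmgcs1 (-1.08 ± 0.14), Sc5d (-0.77 ± 0.10) and Dhcr7 (-0.66 ± 0.10), enzymes of the pathway, had groups that did not overlap.

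On the rising side, genes of quiescent and memory T cells rose in 8 of 17 cases (5, 7 and 5 without mouse 2, 3 and 4, and 0 unpaired) and fell in 0, with a median of 0.34 and 0.18, 0.38 and 0.61 in mice 2, 3 and 4. The rises made up 47.1% of that list, and over all genes 14.6% were higher and 10.4% lower. Differences were positive in 13 and negative in 4 of the 17, down to -1.37. Falls past the threshold numbered 2 with normexp, 2 in the authors' values and 1 without mouse 3. Id3, an inhibitor of E proteins, went from -0.63, -0.86 and 0.56 in the controls to 0.70, 0.95 and 2.15 with miR-29b. Its groups were apart and mouse 4 was highest in both (1.58 ± 0.11, adjusted p = 0.00179, 0.0849 unpaired). Lef1 (0.87 ± 0.10) and Tcf7 (0.79 ± 0.14), related transcription factors of naive T cells, rose with differences of 0.80, 0.95 and 0.85 and 0.74, 0.84 and 0.80 in the 3 mice. Tob1, which restrains proliferation (1.002 ± 0.12), the costimulatory receptor Cd27 (0.83 ± 0.13) and the lymph node homing receptor Ccr7 (0.85 ± 0.14) rose too. Tcf7 also counts among 10 follicular helper genes, of which 4 rose (2, 1 and 0 without mouse 2, 3 and 4, and 0 unpaired) and 0 fell: the adaptor Sh2d1a (0.52 ± 0.11), Cd200 (0.99 ± 0.21) and the checkpoint receptor Pdcd1 (0.43 ± 0.10) were the others. Among 13 regulatory T cell genes 5 rose (3, 4 and 2 without mouse 2, 3 and 4, and 0 unpaired) and 1 fell (0, 1 and 0 without mouse 2, 3 and 4, and 0 unpaired). The shares were 38.5% and 7.69%, the latter below that of all genes. Gpr83 went from -0.21, -0.96 and -1.33 to 2.17, 0.22 and 0.81, and the folate receptor family member Izumo1r from -2.62, -2.69 and -1.99 to -1.11, -1.72 and -0.39 (1.36 ± 0.13). In both the groups were apart. The integrin Itgae rose (0.54 ± 0.11) and the coreceptor Nrp1 fell (-1.27 ± 0.31).

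Genes of the T cell receptor complex and its signalling rose in 10 of 26 cases (4, 4 and 3 without mouse 2, 3 and 4, and 0 unpaired, and 5 with quantile normalization), and 1 fell. Vav1, an exchange factor downstream of the receptor, went from 3.66, 3.72 and 2.85 to 4.15, 4.41 and 3.60, with overlap between groups and 0.49, 0.69 and 0.75 within mice. The receptor chains Cd247 (0.57 ± 0.09) and Cd3d (0.48 ± 0.11) and the kinase Lck (0.58 ± 0.10) rose. Cd3d and Lck are also helper T cell markers, whose summed signal was 260 to 299 in the controls and 356 to 404 with miR-29b, without overlap, and its part in this list was not tested. Receptors that use the common gamma chain rose in 4 of 8 cases (3, 3 and 2 without mouse 2, 3 and 4, and 0 unpaired) and fell in 0: Il21r (0.75 ± 0.09), Il4ra (0.56 ± 0.07), Il15ra (0.53 ± 0.12) and Il2ra (0.80 ± 0.20). Il21 itself, the cytokine of Il21r, was uneven, with levels of -4.09, -4.78 and -6.06 in the controls and -3.92, -2.15 and -3.81 with miR-29b. It rose by 0.16, 2.63 and 2.25 in mice 2, 3 and 4, and the groups did not overlap (adjusted p = 0.0406, 0.172 unpaired). It did not pass without mouse 3 or 4. Among 22 TNF family ligands and receptors 5 rose (3, 4 and 3 without mouse 2, 3 and 4, and 2 unpaired) and 2 fell (2, 2 and 2 without mouse 2, 3 and 4, and 1 unpaired). The shares were 22.7% and 9.09%, against 14.6% and 10.4% of all genes. Tnfsf14 went from 0.92, 1.28 and 0.83 to 2.29, 2.75 and 2.28 (1.43 ± 0.08), and the lymphotoxin chain Ltb rose (0.79 ± 0.12), whereas the death ligands Fasl and Tnfsf10 (-1.17 ± 0.16) fell.

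Cytosolic ribosomal protein genes shifted upward by a small amount. Of 67 tested, 65 had a positive difference, 22 (32.8%) rose and 0 fell, with a median of 0.35 and 0.27, 0.40 and 0.34 in the 3 mice. These calls rest on all 3 mice: the number that rose was 1, 1 and 0 without mouse 2, 3 and 4, and 0 unpaired. With quantile normalization 11 rose and the median was 0.16, against -0.0047 over all genes. Rpl3 went from 6.44, 6.54 and 6.71 to 6.90, 7.15 and 7.11 (0.49 ± 0.09), and its groups were just apart. Rpl13a, Rpl17 and Rpl18 showed 0.45, 0.49 and 0.50, each with overlapping groups. Ribosomal protein genes have many processed copies, so their probes may not be specific. Of 43 mitochondrial ribosomal protein genes 4 rose (9.3%) and 3 fell (6.98%), and of 26 ribosome biogenesis genes 0 passed. Of 50 oxidative phosphorylation genes 1 rose (2.0%) and 5 fell (10.0%). All of these shares were below those of all genes, 14.6% higher and 10.4% lower. Mrpl37 (-0.78 ± 0.11) and the complex I subunit Ndufb9 (-0.84 ± 0.11) fell. Without mouse 2, 3 and 4 the mitochondrial ribosomal rises numbered 1, 1 and 0 and the oxidative phosphorylation falls 2, 2 and 2.

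Targets of p53 rose in 8 of 23 cases (1, 3 and 1 without mouse 2, 3 and 4, and 0 unpaired) and fell in 1, with a median of 0.26 and 0.25, 0.23 and 0.30 in mice 2, 3 and 4. Sesn2, a stress sensor (0.54 ± 0.08), Trp53inp1 (0.62 ± 0.12) and the cyclin Ccng1 (0.38 ± 0.08) rose, and the gene that fell was Ei24 (-0.54 ± 0.10). MHC class II genes rose in 5 of 11 cases (4, 4 and 3 without mouse 2, 3 and 4, and 1 unpaired), and only Ifi30 of that list fell. Their median was 0.51, made up of 0.58, 0.72 and 0.03 in mice 2, 3 and 4. H2-DMb1, a chain of the peptide exchanger H2-DM that resembles H2-DMb2, went from 1.14, 0.96 and 1.20 to 2.91, 2.08 and 2.15 (1.28 ± 0.18), and H2-DMb2 showed 1.07 ± 0.16. The summed signal of B cell markers, whose ranges are given above and overlapped between groups, was not tested as a source. Median differences of the 8 B cell markers were 0.61, 0.38 and -0.02 in mice 2, 3 and 4. The lysosome list had 19.4% higher and 11.1% lower, against 14.6% and 10.4% of all genes. Among 36 lysosome and autophagy genes 7 rose (6, 4 and 3 without mouse 2, 3 and 4, and 0 unpaired) and 4 fell (0, 2 and 1 without mouse 2, 3 and 4, and 0 unpaired), with rises in the glucosidase Gaa (0.70 ± 0.09) and Lamp1 (0.65 ± 0.09) and a fall in the protease Ctsc (-0.56 ± 0.10). Of 21 TGF-beta, SMAD and ZEB genes 4 rose (2, 3 and 1 without mouse 2, 3 and 4, and 1 unpaired) and 2 fell (1, 1 and 0 without mouse 2, 3 and 4, and 0 unpaired). The corepressor Tgif1 (1.02 ± 0.15) and the ligand Tgfb1 (0.61 ± 0.11) rose and Tgfb3 fell (-0.77 ± 0.17).

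**Figure D4:**
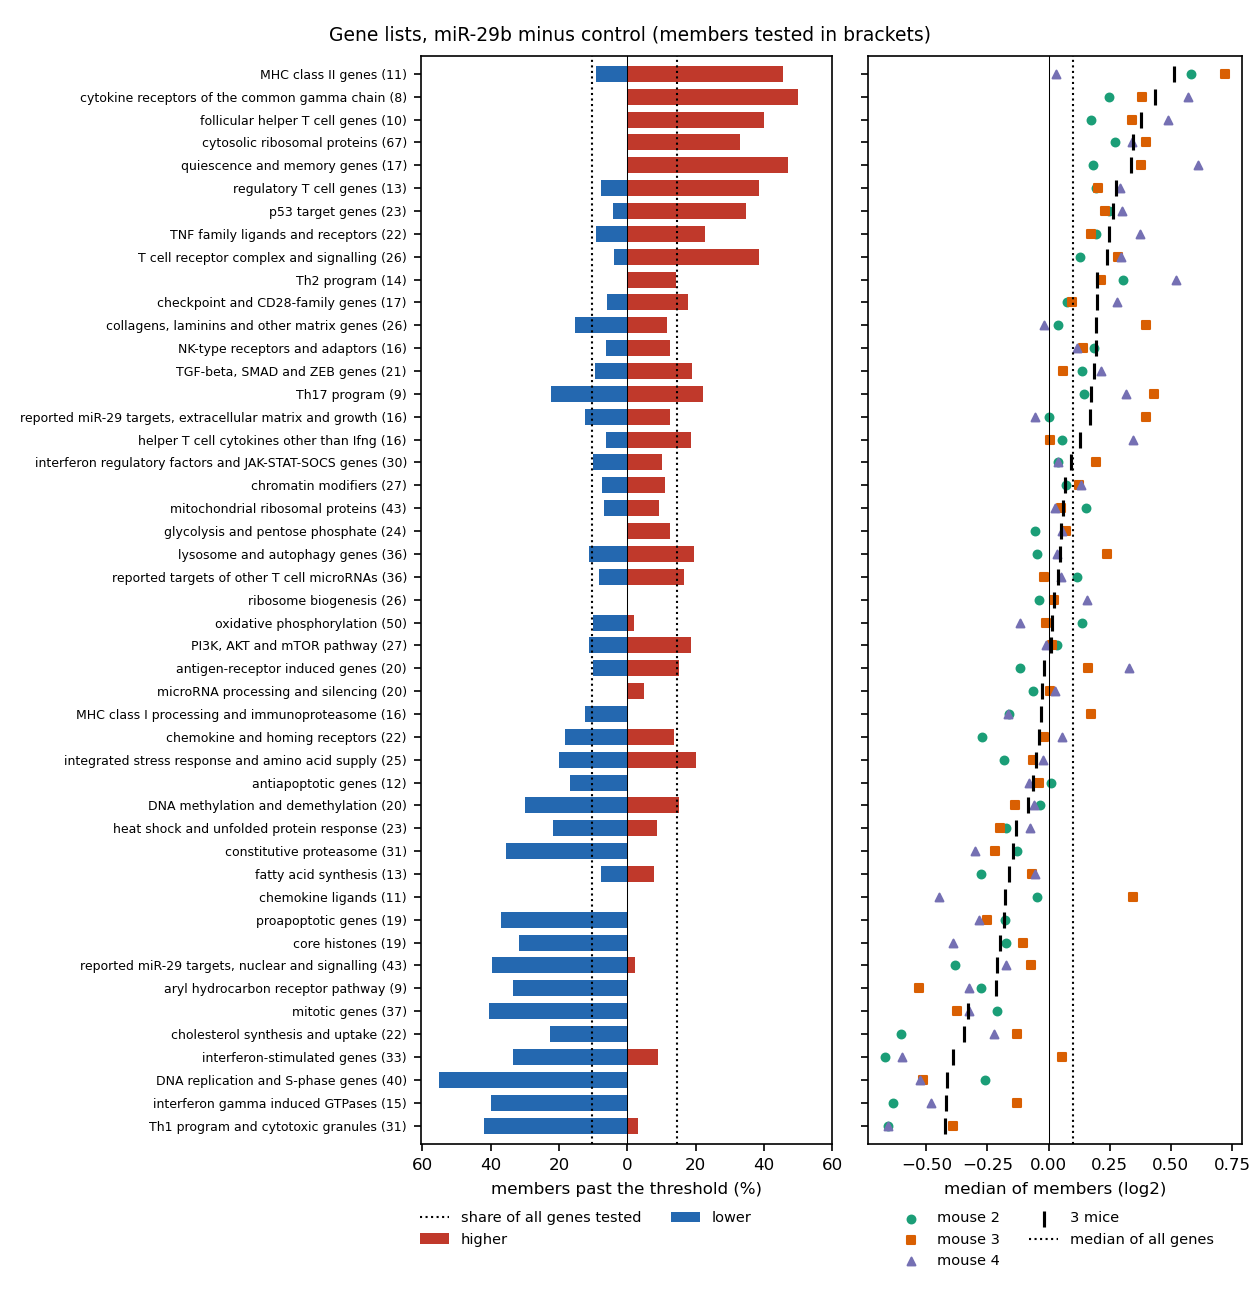
Left, share of tested members that were higher (red) or lower (blue) with miR-29b for 47 gene lists (% of members tested, number in brackets), with dotted lines at the share of all genes, 14.6% and 10.4%. Right, median difference of the members (log2) over the 3 mice (black bar) and in each mouse (coloured symbols), with a dotted line at the median of all genes, 0.10; Th1, interferon and S-phase lists lie at the bottom and MHC class II and common gamma chain lists at the top.

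Of 9 genes of the aryl hydrocarbon receptor pathway 3 fell (3, 1 and 1 without mouse 2, 3 and 4, and 1 unpaired) and 0 rose. Beside Ahrr these were the receptor gene Ahr itself (-0.74 ± 0.16) and its target Tiparp (-0.53 ± 0.11), both with overlapping groups. In that list 2 genes had a positive difference, up to 1.52, and with quantile normalization 1 rose past the threshold. In the PI3K, AKT and mTOR pathway, with 11.1% lower and 18.5% higher against 10.4% and 14.6% of all genes, 3 of 27 fell (3, 3 and 3 without mouse 2, 3 and 4, and 1 unpaired) and 5 rose (1, 3 and 1 without mouse 2, 3 and 4, and 0 unpaired): the catalytic subunit Pik3cb (-1.16 ± 0.09), the AKT phosphatase Phlpp2 (-0.83 ± 0.09, with 0.05 on a dimmer probe) and the kinase Sgk1 (-1.33 ± 0.16) fell, and Pik3r2, a regulatory subunit, rose (0.67 ± 0.09). Of 25 integrated stress response genes 5 rose and 5 fell. Ddit3, a stress transcription factor (0.86 ± 0.11), and Ddit4, an mTOR inhibitor (0.74 ± 0.11), rose, and Nupr1 (-1.61 ± 0.22) and the serine synthesis gene Psph (-0.66 ± 0.08) fell. Without mouse 2, 3 and 4 the rises in that list numbered 4, 4 and 4, and 2 unpaired, and the falls 2, 4 and 3, and 0 unpaired. Of 22 chemokine and homing receptors 3 were higher (2, 1 and 2 without mouse 2, 3 and 4, and 0 unpaired) and 4 lower (1, 3 and 2 without mouse 2, 3 and 4, and 1 unpaired), or 13.6% and 18.2%. 

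The smaller immune and chromatin lists that follow had few members past the threshold, and their shares stand beside 14.6% higher and 10.4% lower over all genes. Of 20 genes induced by the antigen receptor 3 rose (3, 0 and 0 without mouse 2, 3 and 4, and 0 unpaired) and 2 fell (2, 3 and 1 without mouse 2, 3 and 4, and 0 unpaired): the nuclear receptor Nr4a1 showed 0.41 ± 0.08, and the immediate early genes Jun and Ier2 -0.70 ± 0.12 and -0.69 ± 0.13. Of 17 checkpoint and CD28-family genes 3 rose (2, 1 and 1 without mouse 2, 3 and 4, and 0 unpaired), Cd200, Pdcd1 and Cd96 (0.46 ± 0.09), and the ligand gene Cd274 fell (-0.63 ± 0.13), a fall that did not pass without mouse 2 or 4, nor unpaired. Among 16 helper T cell cytokines other than Ifng, Il21, Tgfb1 and Il16 (0.52 ± 0.13) rose (18.8%) and Spp1, which encodes osteopontin, fell (-0.65 ± 0.11, 6.25%). The rises numbered 2, 0 and 0 without mouse 2, 3 and 4, and 0 unpaired, and the falls 0, 2 and 1, and 0 unpaired. Among 16 NK-type receptors and adaptors the adaptor Hcst (0.67 ± 0.17) and Klre1 rose (12.5%) and Cd7 fell (-1.70 ± 0.24). The rises numbered 0, 0 and 1 without mouse 2, 3 and 4, and 0 unpaired, and Klre1, well above background on 2 arrays of each group, lost its call in 11 of 14 other settings. Among 27 chromatin modifiers the methyltransferase genes Ezh1 (0.51 ± 0.10) and Dot1l (-0.82 ± 0.16) moved in opposite directions, and 3 rose (11.1%) and 2 fell (7.41%). The rises numbered 1, 0 and 0 without mouse 2, 3 and 4, and 0 unpaired, and the falls 1, 1 and 1, and 0 unpaired. In 20 genes of microRNA processing and silencing the helicase gene Ddx17 rose (0.30 ± 0.08) and 0 fell, and this 1 rise was lost without mouse 2, 3 or 4, unpaired and with quantile normalization. Among 26 collagens, laminins and other matrix genes 4 fell (2, 5 and 2 without mouse 2, 3 and 4, and 1 unpaired) and 3 rose (0, 1 and 1 without mouse 2, 3 and 4, and 0 unpaired), or 15.4% and 11.5%, with Nid2 (-0.78 ± 0.12) next to Nid1 below, and the protease inhibitors Timp1 (0.48 ± 0.10) and Timp2 (0.81 ± 0.15) above. The falls include Nid1, which met the background filter only through the controls, so its call is no support for a difference. In fatty acid synthesis the desaturase genes Scd2 (0.51 ± 0.12) and Fads2 (-0.82 ± 0.16) went opposite ways, of 13 genes, and the rise was lost without mouse 2, 3 or 4 and the fall without mouse 2 or 4.

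Some genes were not well above background on any array of 1 group, which leaves only a lower bound of the fold. Of 42 genes dim on all control arrays 23 were past the threshold and higher. Of 6 genes dim on all miR-29b arrays 4 were past it and lower. Over all genes the shares were 14.6% higher and 10.4% lower. The bound sets the bright group's mean against the dim group's, with each dim value raised to the lowest signal well above background on its array. Hdac11, a histone deacetylase, was at least 4.19-fold higher with miR-29b (mean level -6.98 in controls and -4.71 with miR-29b), Ric3, a chaperone of acetylcholine receptors, at least 3.03-fold (-7.98 and -5.23), Hoatz at least 2.89-fold (-7.72 and -5.29) and Prmt8, an arginine methyltransferase, at least 2.67-fold (-8.43 and -5.41). Thbd, thrombomodulin, was at least 4.06-fold lower (-4.63 and -7.30), Nid1 at least 1.98-fold (-5.79 and -7.16), Vsig10 at least 1.92-fold (-5.71 and -6.73) and Pcdh15 at least 1.67-fold (-6.04 and -7.47). These genes met the background filter only through their brighter group, so their p-values and calls are no support for a difference. The bounds hold for the scaled signal: with normexp Hdac11 and Ric3 were at 0.76 and 0.64 and passed, Thbd and Nid1 were at -0.32 and -0.03 and did not, and Vsig10 and Pcdh15 had the opposite sign (0.05 and 0.02).

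A gene's brightest kept probe stood for it, and 1232 genes past the threshold had at least 1 more kept probe. In 727 of these another probe passed in the same direction, in 498 no other probe passed, and in 9 another probe passed in the opposite direction, and a gene can count under both directions. Among the 9, Dnajb6, a cochaperone, showed 0.52 ± 0.11 on its brightest probe and -0.53 and -0.63 on the others, and Eps15l1, an endocytic adaptor, 0.54 ± 0.09 and -0.31. Nfatc1, a factor activated by the T cell receptor, showed 0.37 ± 0.10 and -0.35, and Fnbp1, a membrane-bending protein, -0.48 ± 0.12 and 0.43. No single direction can be given for these 4 genes.

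The miR-29b effect was set beside that of miR-29 inhibitors in wild-type cells, the opposite manipulation, on 6 separate arrays. With inhibitors 0 of 13880 genes passed in limma (504 at an unadjusted p under 0.05). The test of the difference between both effects called 1078 genes (7.77%), 483 (3.48%) with the miR-29b effect above and 595 (4.29%) with it below that of the inhibitors, and 1060 of them were also past the threshold with miR-29b alone. Unpaired the difference called 24 genes, and without mouse 2, 3 and 4 of the Dgcr8-deficient animals 248, 835 and 168. This test includes the miR-29b effect, so a large fall can pass it with an inhibitor value near 0. Ahrr, for instance, was at 0.09 with inhibitors and passed (adjusted p of the difference 0.00456). The p-values of the difference are therefore no support for an inhibitor effect, and with inhibitors alone none of the genes below passed. Ifng showed -2.94 with miR-29b and 0.47 with inhibitors (adjusted p of the difference 0.00657). Dnmt3b showed -1.96 and 0.42 (0.00456), Srd5a1 -1.55 and 0.83 (0.00456), Ifi30 -2.54 and 0.64 (0.00518) and Gzmk -2.03 and 1.23 (0.0188). Other large falls had negative values with inhibitors too: Fbn1 was at -2.49 and -0.46 (0.0718) and Nupr1 at -1.61 and -0.84 (0.183), and these differences did not pass. Of the lower genes 59.8% and of the higher genes 62.6% were above 0 with inhibitors, as were 55.1% of all genes. These shares were not tested against each other.

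**Figure D5:**
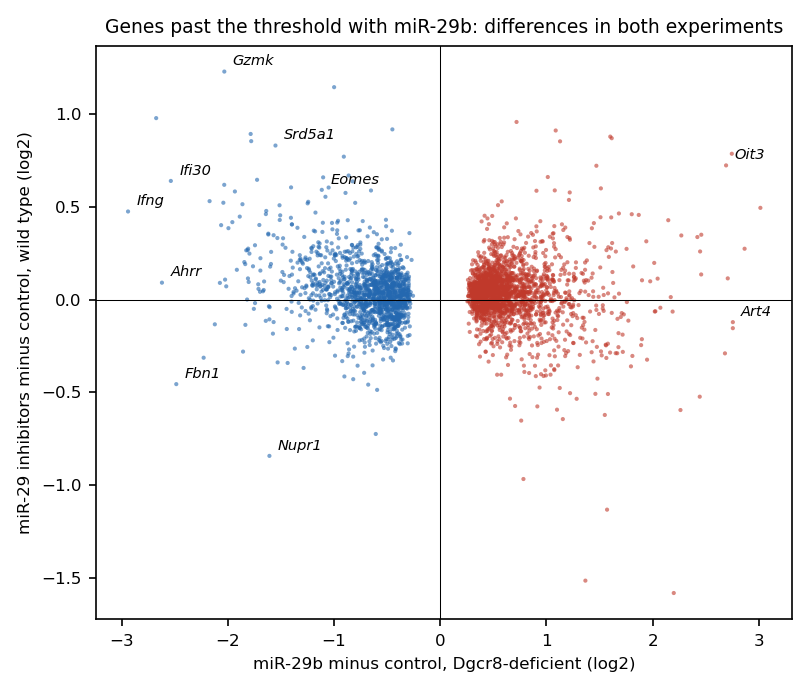
Difference with miR-29 inhibitors in wild-type cells (log2, vertical axis) against the difference with miR-29b in Dgcr8-deficient cells (log2, horizontal axis) for the 3483 genes past the threshold in the latter, blue for lower and red for higher. Both clouds lie slightly above 0 on the vertical axis, and Gzmk, Srd5a1, Ifi30 and Ifng are among the fallen genes that were above 0 with inhibitors.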

How the data were processed

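Total RNA of each sample was labelled with Cy3 and hybridised to a whole mouse genome array with 1 colour. Spot intensity values, per the file headers, come from Agilent Feature Extraction 10.5.1.1 and are background-subtracted but not scaled between arrays. A second deposited file, by the authors, holds log2 expression, for which the submitters' processing notes name limma, and its normalization steps are not given in the sources used here. Probes were named by matching accessions without versions to RefSeq (GRCm38.p6): 24844 of 41174 probes had a symbol, and 16330 stayed unnamed.

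Control and outlier spots were left out, the log2 processed signal was reduced by the 75th percentile of its array, and repeated spots were averaged. Probes had to be complete on all 12 arrays and exceed background clearly in 3 or more of the 6. That left 19716 probes and 13880 genes, with the brightest probe for each, and 391 genes were lost to an incomplete probe alone. All 12 arrays were fitted in limma 3.58.1 (R 4.3.3) with the mouse as a block. The Benjamini-Hochberg threshold was 0.05. The script was tested on simulated data.

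The series' design text says that cells of each mouse were divided between both conditions. Deviations from group means correlated at 0.68, 0.65 and 0.78 between arrays of the same mouse, and negatively between mice. Such deviations cancel out within a group, so positive values within mice make those between mice negative on average, and the negative values add no evidence. Both arrays of a mouse also shared a slide and scan day, so mouse and slide cannot be told apart. Alternatives were no block, other blocks, other background corrections and normalizations, other filters, other probe rules and leaving out mice. As the mean signal was not used here, normexp (offset 50) took the median signal.

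The members, the lists and the choice of genes to name were made with earlier results of these data known. Named genes were the 12 largest rises and falls among genes well above background on all 6 arrays with groups apart, the 6 smallest p-values each way, up to 4 called members per list, 11 key genes, the 4 largest bounds each way and 4 genes with opposed probes. Seed matches in untranslated regions were not analysed here, and some named genes are not reported here.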

Additional observations from a re-analysis of the deposited data

How the results depend on the processing

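Against 3483 genes past the threshold (2033 higher, 1450 lower), the fit with no replicate block gave 342 (156 and 186), the paired fit of the 6 Dgcr8-deficient arrays 1543 (853 and 690), and scan day as a block 1974 (1041 and 933). Leaving out 1 mouse gave 1396 to 2190 (814 to 1154 higher, 582 to 1036 lower). Slide as a block, normexp, quantile normalization, the authors' values, both other filters, the mean over probes, kept outlier spots and eBayes with a trend moved the count to between 2660 and 4347. For the difference from the inhibitor effect, 1078 genes became 24 with no replicate block, 661 with slide and 390 with scan day as a block, 1922 in the authors' values, 482 with no filter on dim probes, 2042 with eBayes with a trend, and 168 to 835 without 1 mouse. Between 1321 (without mouse 4) and 3337 of the 3483 genes kept their call outside the unpaired fit, and at most 9 changed sign in a setting, with none of the opposite sign past the threshold. Some of these fits also held fewer arrays, and the cause of the changes was not tested.

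Of 194 named genes past the threshold, 191 had the same sign in all 15 settings and 54 kept their call in all. The sign turned for Vsig10 (0.048) and Pcdh15 (0.025) with normexp and Dnajb6 (-0.21) with the mean over probes. Of the named genes not past it, Mcl1, Dgcr8, Cd4 and Cd3e had values on both sides of 0. So did the medians of 18 of 54 lists. Those that turned from a median beyond their spread were NK-type receptors after quantile normalization (-0.071) and in the authors' table (-0.0098), NK cell markers (-0.11, -0.00098, and -0.57 with the filter on all 6 arrays) and stroma markers (-0.047, -0.0062, and -0.13 with that filter). Low signal over background limits the 3470 dimmest genes. The seed match result and its alternatives were not run.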

Other observations

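Past the threshold in every one of the 15 other settings as well were 167 lower and 129 higher genes. Beside genes named above, the lower ones held Mybl2 (-1.50 ± 0.14), a transcription factor of the S and G2 phases, Blm (-1.19 ± 0.10), a helicase of DNA repair, Lmnb1 (-1.19 ± 0.09), which encodes lamin B1, and Hopx (-2.01 ± 0.21), a homeodomain protein of effector T cells. The higher ones held the interleukin 6 receptor chain Il6st (0.95 ± 0.14), the NF-kappa-B subunit Relb (0.76 ± 0.11), the adaptor Skap1 (0.96 ± 0.12), the sialyltransferase St6gal1 (1.52 ± 0.22) and Eno2 (1.68 ± 0.10), the enolase of neurons. These 9 genes were chosen after their values were seen.

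Probes without a symbol moved too: of 9866 kept, 845 were higher and 555 lower (14.2%), against 19.98% of kept probes with a symbol. Of the helper T cell lineages other than Th1, the Th2 list had 2 of 14 genes higher (14.3%, and 2, 3 and 2 without mouse 2, 3 and 4, and 0 unpaired) and 0 lower, the matrix protein Ecm1 (0.89 ± 0.12) and Il4ra, and the Th17 list 2 of 9 higher (1, 1 and 1 without mouse 2, 3 and 4, and 0 unpaired) and 2 lower (2, 1 and 1 without mouse 2, 3 and 4, and 0 unpaired), with Ccr6 (0.63 ± 0.14) and Il21 up and Rora (-0.76 ± 0.14) and Ahr down. In glycolysis 3 of 24 genes rose (1, 1 and 1 without mouse 2, 3 and 4, and 0 unpaired), or 12.5% against 14.6% of all genes, and 0 fell. They were Aldoc (0.82 ± 0.14), Aldoa (0.49 ± 0.12) and Gpi1 (0.31 ± 0.08), which lost its call in 10 of 15 other settings. Among heat shock and unfolded protein response genes 2 of 23 rose (0, 1 and 0 without mouse 2, 3 and 4, and 0 unpaired) and 5 fell (2, 2 and 1 without mouse 2, 3 and 4, and 0 unpaired), or 8.70% and 21.7% against 14.6% and 10.4% of all genes, with the largest fall in Sdf2l1 (-0.97 ± 0.12).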
